A study of Mus musculus with 6 samples.

Results

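The genes described here encode the proteins of the cytosolic ribosome. They were taken as the array rows whose annotation gives exactly 1 distinct symbol of the form Rpl or Rps with a number, with an a or x at its end where there is one, or Rplp0 to Rplp2. Pseudogene symbols were left out, and of several rows for a gene the one with the highest mean over all arrays was kept. This gave 31 genes of 30102 measured: 13 of the small (40S) subunit, 17 of the large (60S) subunit and Rplp0, which holds the stalk of the large subunit. Of 79 structural genes of the ribosome listed for this comparison, these 31 were members, 3 had a row of their own under a symbol outside the pattern, and 37 had only rows shared with other genes or pseudogenes. The other 8 were not analysed here.

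Ribosomal proteins are made in roughly equal numbers, since each ribosome carries them in fixed stoichiometry around its ribosomal RNA. Their genes are active in nearly all cells, and their mRNAs are among the most abundant of a cell. Most of these mRNAs begin with a C followed by a run of pyrimidines, the terminal oligopyrimidine (TOP) tract. Through it the kinase mTOR and the RNA-binding protein LARP1 control how much of the mRNA is translated, often with little change in its amount. The arrays measured RNA only, so translation of these mRNAs was not observed.

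The cells were bone marrow-derived mast cells of C57BL/6J mice, a primary culture flushed from femurs and matured for 6 weeks with interleukin 3 and supernatant of CHO-KL cells, which contains stem cell factor. Both groups were washed into Tyrode's buffer and held there for 1 h, the naive group in buffer alone and the other group with 1 µg/mL ionomycin, an ionophore that lets calcium in and triggers degranulation. Both were then washed and kept in medium for 3 h before RNA was extracted, 4 h after activation began. Each group has 3 arrays. The sources used here do not give the age, sex or number of the mice, nor whether the samples of a group came from separate cultures. The p-values therefore weigh the difference between the groups against the scatter of these samples, and that scatter may be technical. RNA came from whole cultures, so fewer cells of a kind and less RNA per cell cannot be told apart.

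Values are on a log2 scale, and their precision is set by having 3 arrays a group. Pearson's r between arrays, across genes, ran from 0.980 to 0.998. The 2 arrays numbered 1 lay away from the other 4 on the first principal component (52.6% of the variance). All 12 mast cell markers lay above the background level of 6.04, with 6-array means from 8.05 to 14.24. Markers of the other listed cell types were above it as well, in part. These were 6 of 6 measured for macrophages, 3 of 3 for basophils, 2 of 2 for erythroid cells and 5 of 6 for neutrophils. For megakaryocytes and B cells it was 3 of 4 each, for T cells 2 of 3, for eosinophils 2 of 4 and for dendritic cells 1 of 4. The brightest were Itga2b of megakaryocytes at 11.63, Cd68 of macrophages at 11.31 and Cd200r3 of basophils at 11.17. By limma 0 of the 12 mast cell markers passed an adjusted p of 0.05. Before adjustment 1 was higher and 4 lower at p under 0.05, against 10.2% and 5.44% of all genes. No marker of the other listed cell types passed either, with 0 to 3 higher and 0 to 1 lower per list before adjustment. These calls depended on the fit. With a block that sets replicate 1 apart, 2 of 48 markers were called higher and 2 lower (all genes: 2.25% and 2.47%). Without both replicate 1 arrays it was 2 and 3 (1.41% and 1.43%), and with array weights 7 and 5 (7.44% and 5.49%). Both replicate 1 arrays were above the others for Mcpt8 (10.36 and 10.60 against 9.03 to 9.20) and Prss34. The basophil marker Cd200r3 was not higher in ionomycin replicate 1. Cd68 was lower in both (10.49 and 10.67 against 11.37 to 11.99), but Adgre1, also of macrophages, was higher (8.37 and 8.31 against 7.51 to 8.15).

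The start sites of 26 of the 31 genes were found in RefSeq promoters (build GRCm38.p6), with 32 starts in all. The windows shown are those of Rps9, the gene with the lowest difference, and of the 6 genes with a RefSeq entry among the 7 whose groups did not overlap, because the TOP tract is the feature that these mRNAs are known to share. Each window holds 20 bases before the annotated start and 20 from it on, 5′ to 3′ on the gene's strand. Capitals mark a C followed by at least 4 pyrimidines (C or T), searched on the gene's strand only and beginning within 5 bases of the start. Where several such C were found, the one nearest the start was marked.
Rpl35 (chr2:39005112-39005151, minus strand): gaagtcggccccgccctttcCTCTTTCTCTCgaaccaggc
Rps18 (chr17:33955646-33955685, minus strand): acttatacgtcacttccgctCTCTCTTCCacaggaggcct
Rpl38 (chr11:114668560-114668599, plus strand): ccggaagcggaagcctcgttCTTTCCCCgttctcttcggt
Rps9 (chr7:3704021-3704060, plus strand): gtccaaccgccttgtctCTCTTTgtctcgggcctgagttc
Rps26 (chr10:128626487-128626526, minus strand): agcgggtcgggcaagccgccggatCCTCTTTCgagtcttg
Rpl11 (chr4:136053374-136053413, minus strand): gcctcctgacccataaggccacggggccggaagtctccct
Rps19 (chr7:24884572-24884611, plus strand): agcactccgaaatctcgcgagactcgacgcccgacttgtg

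In Rpl35, Rps18 and Rpl38 the marked match began at the annotated start itself and ran for 11, 9 and 8 bases. In Rps9 it began 3 bases before the start and in Rps26 4 bases after it. These matches lay in longer pyrimidine runs, of 18, 11, 10, 9 and 9 bases in that order, which began before the marked C. Rpl11 had no match beginning within 5 bases of its start, nor had any of the 3 annotated starts of Rps19, of which the first is shown. Pyrimidine runs of up to 7 bases lay elsewhere in the Rpl11 window. Such a tract was present for 12 of the 26 genes (46.2%), against 21.2% of all 27025 genes in the table. The longest pyrimidine run within 20 bases of a start had a median of 7 bases for the members and 5 for all starts. A match is a description of the letters around the annotated start, which can lie some bases from the start used in these cells.

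At 4 h after ionomycin the ribosomal protein genes lay close to their naive levels. Their log2 differences (ionomycin minus naive) ran from -0.085 for Rps9 to 0.17 for Rpl11, a fold range of 0.943 to 1.12. None of the 31 genes was higher or lower at an adjusted p under 0.05 by limma, and the smallest adjusted p was 0.252, for Rpl11. Over all genes 0.289% were called higher and 0.0598% lower, so a count of 0 among 31 genes is no finding about these genes. That background moved widely with the fit: leaving out 1 array gave 1 to 95 genes called higher and 0 to 55 lower, the fewest without ionomycin replicate 2 and the most without naive replicate 1. Array weights called 7.44% of all genes higher and 5.49% lower, and a block that sets replicate 1 against the others 2.25% and 2.47%, still with 0 members in both fits. Before adjustment (p under 0.05 by limma) 1 member rose, Rpl11, and 0 fell, against 10.2% and 5.44% of all genes. The median difference was 0.054 for the members and 0.053 for all genes.

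The intervals show how small a change these arrays could still hold. All 31 intervals (95%, moderated by limma and not adjusted for the number of genes) lay within 0.5 log2 units of 0 on both sides. Their half-widths ran from 0.12 to 0.25, with a median of 0.15. The bound farthest from 0 was that of Rpl37a at 0.34, a 1.26-fold rise, and on the lower side that of Rps9 at -0.29, a fold of 0.820. The spread within groups was small for these genes, with a median SD of 0.059 against 0.106 for all genes. Genes with a mean of at least 12 had a median SD of 0.090.

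**Figure D1:**
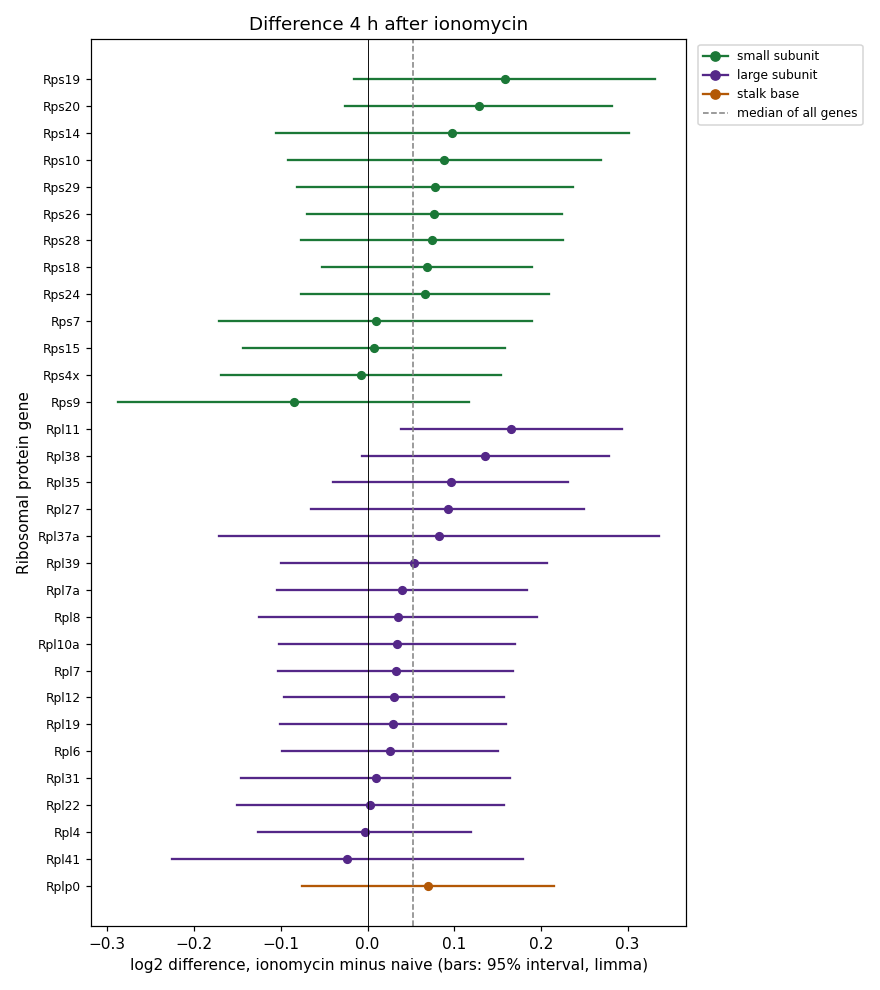
Log2 difference (ionomycin minus naive, x axis) of each of the 31 ribosomal protein genes (y axis), with limma's 95% interval as a bar, coloured by subunit; the dashed line is the median of all genes. The differences sit between -0.085 and 0.17, and every interval except that of Rpl11 crosses 0.

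The sign of the differences leaned one way. Of the 31 genes 27 had a higher mean after ionomycin and 4 a lower one, whereas 64.6% of all genes had a higher mean. This lean moved with the scaling of the arrays. After quantile normalization 22 of the 31 were higher, and the median difference was 0.035, beside 0.014 for all genes. After each array was centred on its median over all rows, 15 were higher and the median difference was -0.012, beside -0.013 for all genes. Those array medians, 5.88 to 6.03, lay below the background level of 6.04 and below the mean of each member. In 7 genes each ionomycin array was above each naive array, and in 0 it was the other way round. That is 22.6% of the members, against 18.9% of all genes without overlap and higher and 7.31% without overlap and lower. The 7 genes were Rpl11, Rpl35, Rpl38, Rps18, Rps19, Rps20 and Rps26, of which Rpl35 and Rps18 are named because of this separation, after their values were seen. After quantile normalization 8 members were higher without overlap and 0 lower, against 12.9% and 9.02% of all genes. After centring 3 members were higher without overlap and 2 lower, against 10.8% and 11.6% of all genes.

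Among the 13 small subunit genes the median difference was 0.075, 11 had a higher mean and none passed the test. Rps19, a protein of the 40S head whose human gene is mutated in Diamond-Blackfan anaemia, was at 8.35, 8.47 and 8.56 in naive replicates 1, 2 and 3. It was at 8.58, 8.66 and 8.61 after ionomycin. The groups did not overlap, but naive replicate 3 lay only just below the lowest ionomycin array, and the difference of 0.16 ± 0.07 (SE, n = 3 per group) did not pass (limma adjusted p = 0.336).

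Rps20, another protein of the 40S head, was at 9.79, 9.89 and 9.88 in the naive arrays and at 10.06, 9.95 and 9.93 after ionomycin. Its highest value was that of ionomycin replicate 1 and its lowest that of naive replicate 1. The difference was 0.13 ± 0.06 (limma adjusted p = 0.359). Rps26, which lies near the path of the mRNA out of the small subunit, was the brightest small subunit row. Its levels were 13.04, 13.14 and 13.19 in naive and 13.19, 13.22 and 13.19 in ionomycin arrays, a mean difference of 0.077 ± 0.061 (limma adjusted p = 0.530). Naive replicate 1 was low, the other 5 arrays lay within a narrow range, and the groups were apart by less than the printed digits show.

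Rps14, a protein of the platform of the 40S subunit, gave 7.81, 8.09 and 8.01 in naive and 8.07, 8.06 and 8.07 in ionomycin arrays. Naive replicate 2 was the highest array of all, so the groups overlapped (difference 0.098, limma adjusted p = 0.565). Rps28, the dimmest small subunit row, was at 7.75, 7.91 and 7.80 and then at 7.92, 7.87 and 7.91, again with overlap (0.075, limma adjusted p = 0.554). Rps18 had the smallest spread of the 31 genes, with naive values of 8.08, 8.04 and 8.05 and ionomycin values of 8.13, 8.12 and 8.13. Its groups were apart, yet the difference was only 0.069 ± 0.050 (limma adjusted p = 0.498).

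Rps9 and Rps4x were the small subunit genes with a lower mean after ionomycin. Rps9, which is bound early in the assembly of the small subunit, gave 8.46, 8.74 and 8.60 without ionomycin and 8.47, 8.55 and 8.53 with it. The naive arrays lay on both sides of the ionomycin arrays (difference -0.085 ± 0.084, limma adjusted p = 0.617). Rps4x, encoded on the X chromosome, was at 11.20, 11.31 and 11.31 and then at 11.34, 11.26 and 11.19, with no separation of the groups (-0.008, limma adjusted p = 0.957). The remaining genes of the small subunit, Rps7, Rps10, Rps15, Rps24 and Rps29, differed by 0.007 to 0.089, and in all 5 the groups overlapped.

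Among the 17 large subunit genes the median difference was 0.034 and 15 had a higher mean. Rpl11, which joins Rpl5 and the 5S ribosomal RNA in a particle that can also bind MDM2, the ubiquitin ligase of p53, was at 8.26, 8.32 and 8.34 in naive arrays. It was at 8.48, 8.46 and 8.48 after ionomycin. The gap between the groups was larger than the range within either, and the difference of 0.17 ± 0.05 (SE, n = 3 per group) was the only one whose interval, 0.038 to 0.29, excluded 0. It did not pass after adjustment over all genes (limma adjusted p = 0.252, and 0.161 with the replicate number as a block). After centring on the array median its difference was 0.10 (limma adjusted p = 0.435). In that fit, and with trend and robust eBayes, 0 members had an unadjusted p under 0.05 by limma, Rpl11 included.

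Rpl38, known from a mouse mutant with altered axial skeleton patterning, was at 11.64, 11.69 and 11.76 and then at 11.80, 11.86 and 11.85. Each ionomycin array was above every naive array, and the difference of 0.14 ± 0.06 did not pass (limma adjusted p = 0.329). Rpl35, which sits at the exit of the tunnel for the nascent chain, was at 12.58, 12.62 and 12.63 and then at 12.77, 12.69 and 12.67 (difference 0.096, limma adjusted p = 0.415). The ionomycin replicate 1 array was again the highest.

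Rpl37a had the largest spread within groups of the 31 genes (SD 0.14). Its naive values were 10.56, 10.88 and 10.83 and its ionomycin values 10.94, 10.84 and 10.74. Naive replicate 1 was the lowest array and ionomycin replicate 1 the highest, while the other 4 gave no order by group (difference 0.083 ± 0.105, limma adjusted p = 0.700).

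The brightest large subunit row was that of Rpl4, a protein that lines the tunnel, at 13.32, 13.37 and 13.35 and then at 13.34, 13.33 and 13.35. It varied little, and its difference of -0.003 had an interval from -0.13 to 0.12. Rpl41, the smallest ribosomal protein, was at 13.19, 13.14 and 13.18 and then at 13.31, 13.05 and 13.09, so that the ionomycin arrays lay on both sides of the naive ones (difference -0.023, limma adjusted p = 0.897). Rpl22, which is not needed for general translation and has a close paralog, was at 8.53, 8.62 and 8.69 and then at 8.57, 8.63 and 8.64 (0.003, limma adjusted p = 0.981). Rpl31 was the dimmest of the 31, at 6.03, 6.15 and 6.15 and then 6.17, 6.13 and 6.06, with a mean just above background and naive replicate 1 below it. The other 9 large subunit genes (Rpl6, Rpl7, Rpl7a, Rpl8, Rpl10a, Rpl12, Rpl19, Rpl27 and Rpl39) differed by 0.026 to 0.092 and their groups overlapped.

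Rplp0 anchors the flexible stalk that recruits translation factors, and it is often used as a reference gene. It was at 11.61, 11.72 and 11.71 in naive and at 11.79, 11.71 and 11.74 in ionomycin arrays. Ionomycin replicate 2 lay within the naive range (difference 0.070 ± 0.060, limma adjusted p = 0.564, 95% interval -0.075 to 0.22). Its partners Rplp1 and Rplp2 had only rows that name other genes too.

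**Figure D2:**
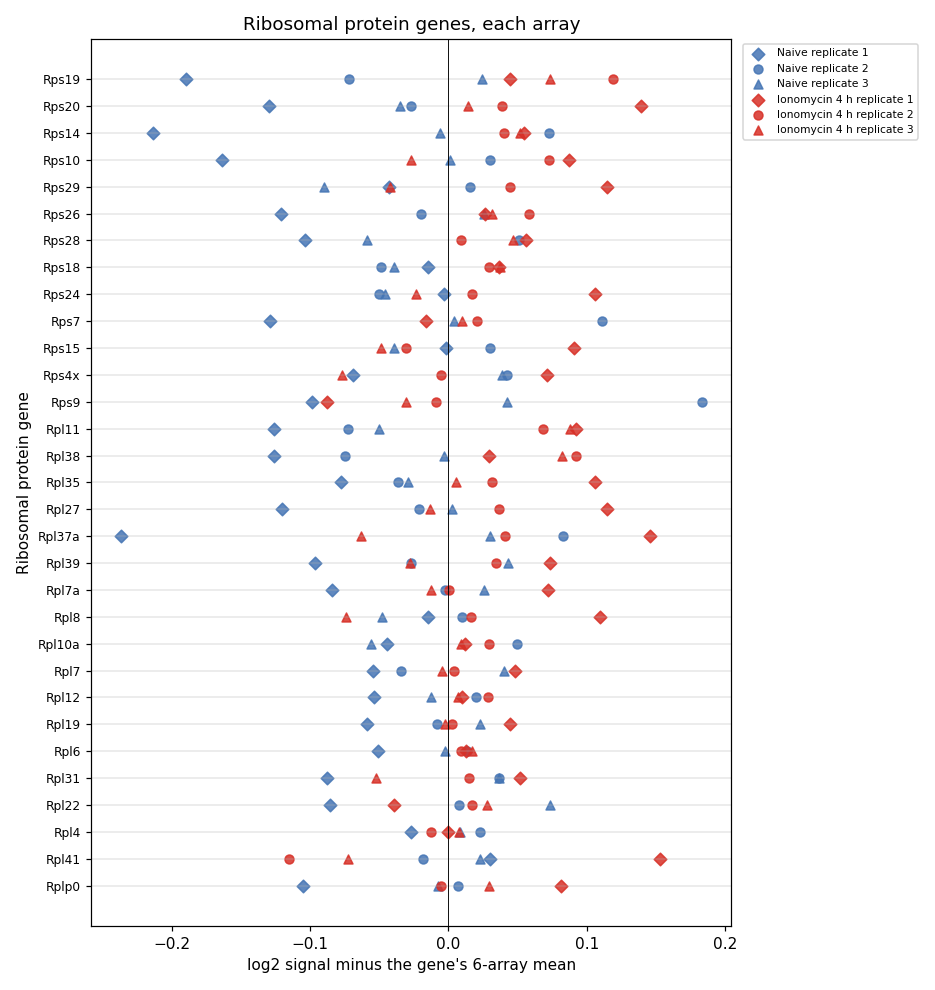
Log2 signal of each array minus the gene's own 6-array mean (x axis) for the 31 ribosomal protein genes (y axis), with naive arrays in blue, ionomycin arrays in red and 1 marker shape per replicate number. The naive replicate 1 array lies at the left for most genes and the ionomycin replicate 1 array at the right, while the other 4 arrays are mixed.

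The lean towards higher values came mostly with the replicate 1 arrays. Arrays are compared here by their number, although the labels do not state that they were paired. Between arrays of the same number, ionomycin minus naive had a median over the members of 0.14 at replicate 1, 0.009 at replicate 2 and 0.005 at replicate 3. All 31 genes were higher at replicate 1, 18 at replicate 2 and 16 at replicate 3. Over all genes the medians were 0.077, 0.046 and 0.027. The naive replicate 1 array was the lowest of the 6 arrays for 23 of the 31 genes (74.2%), against 42.9% of all genes. The ionomycin replicate 1 array was the highest for 19 of them and for 16.5% of all genes. In 10 members the difference was positive at all 3 numbers and in 0 it was negative at all 3, against 35.8% and 16.8% of all genes.

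Without both replicate 1 arrays the median difference of the members was 0.008, 17 of 31 had a higher mean, and none passed (smallest limma adjusted p = 0.243, n = 2 per group), while 423 genes of all were called higher and 429 lower. Rpl11 (0.14), Rpl38 (0.13) and Rps19 (0.12) kept differences of that size in this fit. Rpl37a, at 0.083 with all arrays, was at -0.068. The naive replicate 1 array also had the lowest median signal over all rows, 5.88, against 5.95 to 6.03 for the other 5. Without that array alone the members' median difference was 0.019, 23 of 31 had a higher mean, and 8 were higher and 2 lower without overlap, against 23.5% and 14.3% of all genes.

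**Figure D3:**
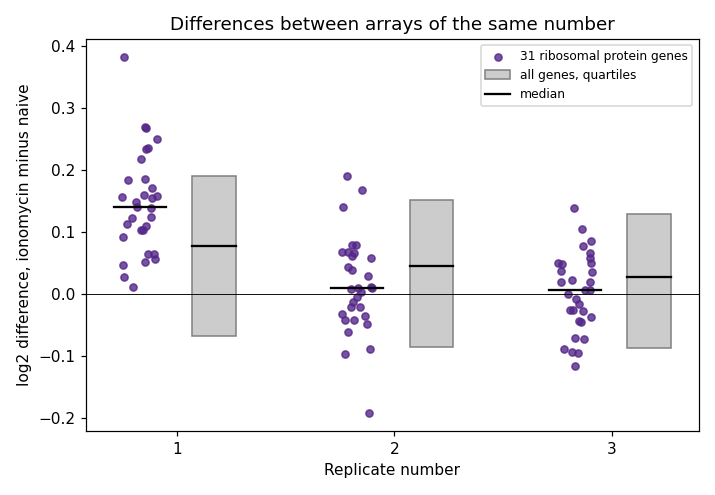
Log2 difference between the ionomycin and the naive array of the same replicate number (y axis) for the 31 ribosomal protein genes as points, with their median as a line, beside the quartiles and median of all 30102 genes. At replicate 1 all 31 points are above 0, and at replicates 2 and 3 they lie on both sides, with medians of 0.009 and 0.005.

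Mammalian genomes hold many processed copies of ribosomal protein genes, and array rows for these genes can share sequence with them. The name of a row gives a chromosome, and for 99.5% of the 22647 rows with 1 symbol and a RefSeq chromosome it was that of the gene. For 6 of the 31 genes (Rpl7a, Rpl12, Rpl27, Rpl31, Rpl35 and Rpl41) the row used was named for another chromosome, so transcripts of the gene and of a copy cannot be told apart there. Levels of different rows are not comparable as amounts of mRNA: Rpl27 was at 11.74 on the row used and at 8.08 on the row of its own chromosome. The differences of these 2 rows were alike, at 0.092 and 0.085. So were those of Rpl35 (0.096 and 0.096) and Rpl7a (0.040 and 0.044), whereas Rpl41 was at -0.023 on the row used and at 0.065 on its own. Rps26 had 2 further rows elsewhere, 1 of them below background, with differences of 0.10 and 0.038. With rows of the gene's own chromosome only, which leaves 29 genes, the median was 0.066 and none passed.

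The rows left out of the members gave similar values. The 52 rows that name a ribosomal protein gene together with other genes had a median difference of 0.058 and a range of -0.044 to 0.17. None of the 52 passed by limma over all 65770 rows, and 0 had an unadjusted p under 0.05. The 192 rows of ribosomal protein pseudogene symbols, of which 179 lay above background, had a median of 0.056 and a range of -0.051 to 0.25. None of these passed either, with 1 higher and 0 lower before adjustment. Over all rows the median was 0.051.

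Among ribosome components with symbols outside the pattern, Rpsa, a 40S protein also known as the laminin receptor precursor, Fau, a ubiquitin-like fusion that yields a 40S protein, and Rps3a1 differed by 0.029, 0.034 and 0.012. None passed. Of 7 measured paralogs 0 passed by limma, with 1 higher and 0 lower before adjustment, and their median was 0.12. Rpl7l1, the brightest paralog, had group means of 10.06 ± 0.27 (naive) and 9.72 ± 0.11 (ionomycin) (SD, n = 3, limma adjusted p = 0.328), and Rps27l, a p53 target in other cells, differed by 0.052 (limma adjusted p = 0.803).

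Other genes of translation, many of which also carry TOP tracts, were similarly close to their naive levels. Of 16 measured elongation factors, initiation factor subunits and relatives 0 passed by limma, with 1 higher and 0 lower before adjustment and a median of 0.026. Eef2, the translocation factor of elongation, was at 13.48 ± 0.11 and 13.49 ± 0.01, and Pabpc1, the poly(A)-binding protein, at 13.11 ± 0.01 and 13.11 ± 0.03. Of 14 regulators of TOP mRNA translation 0 passed and 0 had an unadjusted p under 0.05 by limma (median -0.043, range -0.58 to 0.27). Mtor differed by 0.10 ± 0.13, Larp1 by -0.040 ± 0.140, Rheb, which activates mTOR, by 0.23 ± 0.15, and Eif4ebp1, a repressor of eIF4E, by 0.070 ± 0.128 (SE, limma adjusted p from 0.439 to 0.895). Myc, a transcription factor that drives ribosome production in growing cells, was at 9.30 ± 0.20 and 9.50 ± 0.25 (limma adjusted p = 0.522).

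The lowest of the list was Rptor, a subunit of the mTOR complex that acts on TOP mRNAs, named after its values were seen. It was at 8.69, 10.27 and 9.85 in the naive arrays and at 8.85, 9.08 and 9.13 with ionomycin, so that naive replicate 1 was the lowest array and the other naive arrays the highest. It did not pass by limma with all arrays (adjusted p = 0.461), but was called lower without both replicate 1 arrays (-0.96, adjusted p = 0.0334) and with array weights (-1.02, adjusted p = 0.0316). Those 2 fits called 1.43% and 5.49% of all genes lower, the first with n = 2 per group.

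Factors that build ribosomes and the proteins of the mitochondrial ribosome were also counted. Of 48 measured biogenesis factors 0 passed by limma, with 3 higher and 1 lower before adjustment, and differences ran from -0.38 to 0.45 (median -0.012). Ncl, the nucleolar protein nucleolin, gave 11.20 ± 0.31 and 11.18 ± 0.19, and Utp4 at 10.38 ± 0.13 and 10.45 ± 0.14. Rrp12, named after its values were seen, came nearest to the threshold, at 8.57 ± 0.08 and 8.98 ± 0.02 (limma adjusted p = 0.0731). Of 75 mitochondrial ribosomal protein genes 0 passed by limma, with 1 higher and 3 lower before adjustment (median -0.047, range -0.24 to 0.19). The brightest, Mrps23 and Mrpl39, differed by -0.11 and 0.058.

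The replicate 1 arrays also went with these lists. In naive replicate 1 the median deviation from the 6-array mean was 0.27 for the biogenesis factors and 0.13 for the mitochondrial ribosomal proteins. It was -0.086 for the cytosolic ribosomal proteins, close to the -0.075 of all genes. That array was the lowest of the 6 for 2 of 48 biogenesis factors and 4 of 75 mitochondrial genes. Among the cytosolic ones it was the lowest for 23 of 31, beside 42.9% of all genes. In ionomycin replicate 1 the median deviations of the 3 lists were alike, at 0.064, 0.048 and 0.056 in the order above, beside 0.008 for all genes. No test of a difference between the lists was made.

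**Figure D4:**
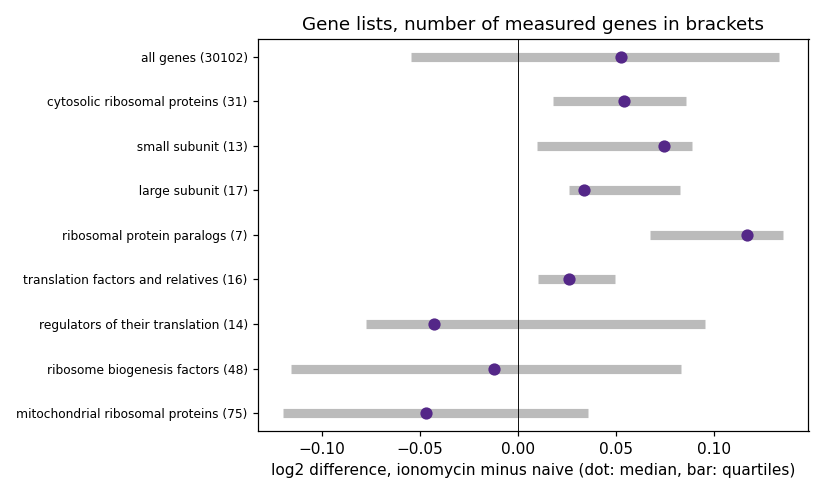
Median (dot) and quartiles (bar) of the log2 difference, ionomycin minus naive (x axis), for all genes, for the cytosolic ribosomal protein genes and their subunits, and for related gene lists, with the number of measured genes in brackets. The cytosolic ribosomal protein genes have a median of 0.054, next to 0.053 for all genes, and a narrower spread than all genes. Their quartiles are 0.018 and 0.086, and those of the translation factors and relatives lie closer together, at 0.010 and 0.050.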

How the data were processed

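Per the labels, biotin-labelled whole-transcript targets from total RNA of 3 naive and 3 ionomycin samples were hybridised to 6 arrays. The deposited values are the authors' log2 signals, 65770 rows by 6 arrays, made with the R package oligo per the submitters' processing notes (the log2 scale is read from their range). How signals were background-corrected, scaled, centred and summarized, the version of oligo and the build are unknown here. The array medians ran from 5.88 to 6.03 on the log2 scale.

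Rows were named through the platform annotation, in which 30439 rows have 1 distinct symbol, 2146 several and 33185 none. RefSeq genes (GRCm38.p6) gave the current symbol of each Entrez ID. Background was the 95th percentile of 1561 chemosensory receptor genes. Groups were compared in limma 3.58.1 under R 4.3.3 (lmFit and eBayes, two-sided, no filter), with Benjamini-Hochberg adjustment over 30102 genes and a threshold of 0.05. The fit was run on simulated data with independent errors and planted changes larger than any difference of the members. That run does not show how the fit performs for differences as small as theirs, or with the shared pattern of the replicate 1 arrays. The members, lists and rules were chosen with earlier results of these data known. Genes were named by a rule: members past the threshold, the 5 highest and 5 lowest differences, the 3 brightest, dimmest and most variable members, Rps6, Rplp0, Rplp1, Rplp2, Rpl5, Rpl11 and Rps19 where measured, the genes past the threshold or else the 2 brightest of each related list, Mtor, Larp1, Eif4ebp1 and Myc.

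Deviations of same-numbered arrays from their group means correlated across genes (0.711, 0.476 and 0.469 for numbers 1, 2 and 3). Over the members the correlations were 0.306, 0.312 and 0.106. Within a group the deviations cancel out, so these correlations depend on each other and do not show that arrays were paired. The labels state no pairing, and a fit with the replicate number as a block was an alternative. The others were a block of 2 levels, quantile normalization, centring, a filter on dim genes, trend and robust eBayes, array weights, other row choices and leaving out arrays. No protein sequences were used here.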

Additional observations from a re-analysis of the deposited data

How the results depend on the processing

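The number of ribosomal protein genes called higher or lower was 0 in each alternative run, including the fit with the replicate block (smallest limma adjusted p 0.161, for Rpl11, median difference 0.054), and the lowest adjusted p of any alternative was 0.0512 (Rpl11, array weights). Over all genes the calls in those runs ranged widely: 87 higher and 18 lower with all arrays and no block, 119 and 33 with the replicate block, 677 and 744 with a block of 2 levels, 2240 and 1654 with array weights, 423 and 429 without both replicate 1 arrays, and 1 to 95 and 0 to 55 without 1 array. The members' median difference moved from 0.054 to 0.035 after quantile normalization (0.014 for all genes) and to -0.012 after centring. It was 0.010 with array weights and 0.0077 without both replicate 1 arrays, and leaving out 1 array gave 0.019 to 0.070. Without overlap, 3 were higher and 2 lower after centring (10.8% and 11.6% of all genes), 8 were higher and 5 lower without both replicate 1 arrays (35.7% and 21.5% of all genes), and leaving out 1 array gave 7 to 14 higher (14 without naive replicate 2 and 12 without ionomycin replicate 3, beside 24.2% and 23.9% of all genes) and 0 to 2 lower. The related lists, with 3, 7, 16, 14, 48 and 75 measured genes, had 0 called in the values above. A block of 2 levels called 1 of these genes higher and 1 lower, beside 2.25% and 2.47% of all genes. Quantile normalization called 1 higher, beside 0.292% of all genes. Array weights called 4 higher and 4 lower (7.44% and 5.49% of all genes). Without both replicate 1 arrays 4 were called higher and 1 lower (1.41% and 1.43% of all genes). Rrp12 was among those called higher in all 4 of these fits. Differences that changed sign, none of them called, were small. Quantile normalization gave 0.0046 for Rpl4, -0.060 for Rpl31, -0.027 for Rps3a1 and -0.015 for Pabpc1. Centring gave -0.063 for Rpl22, -0.057 for Rpl31, -0.054 for Rps3a1, -0.032 for Fau, -0.014 for Rps27l, -0.058 for Eef2, -0.065 for Pabpc1 and -0.0083 for Mrpl39. Array weights gave -0.027 for Rpl31, -0.028 for Rpl37a, -0.0053 for Rps3a1, -0.050 for Fau, -0.073 for Eef2, -0.0069 for Pabpc1, -0.0075 for Eif4ebp1, 0.079 for Ncl, 0.0074 for Larp1 and -0.00029 for Myc. Rpl41 was at 0.021 as the mean of its rows and at 0.065 on the row of its own chromosome, an alternative chosen after seeing the data. Without both replicate 1 arrays Rpl22 was at -0.018, Rpl31 at -0.055, Rpl37a at -0.068, Rps3a1 at -0.027, Fau at -0.025, Eef2 at -0.048, Pabpc1 at -0.012, Eif4ebp1 at -0.022, Ncl at 0.057 and Larp1 at 0.042. Leaving out 1 array gave ranges of -0.039 to 0.041 for Rpl22, -0.017 to 0.0076 for Rpl4, -0.045 to 0.029 for Rps4x, -0.11 to 0.029 for Rpl41, -0.032 to 0.038 for Rpl31, -0.015 to 0.14 for Rpl37a, -0.029 to 0.041 for Rps3a1, -0.016 to 0.091 for Fau, -0.037 to 0.11 for Rps27l, -0.050 to 0.065 for Eef2, -0.019 to 0.014 for Pabpc1, -0.068 to 0.15 for Eif4ebp1, -0.12 to 0.17 for Ncl and -0.14 to 0.11 for Larp1. The cause of these shifts was not tested.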
